A study of Mus musculus with 4 samples.

Results

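The genes described here are 9 members of the complement system, namely the chains C1qa, C1qb and C1qc, the proteases C1s1 and C1ra, the components C3 and C4b, and the receptors C3ar1 and C5ar1. They were chosen by symbol, 9 of the 32285 genes counted in every library, and each had UMIs in all 4 libraries. Mammary tumors taken at 17 to 18 weeks were profiled by single-cell RNA sequencing in 4 libraries. Whether each library came from 1 mouse or from pooled tumors is not given, so p-values measure the spread between these libraries. The genotype without Cre, MMTV-Cre-; Frmd8fl/fl; PyMT, gave replicates 1 and 3 and is here called Cre-. The genotype with Cre, MMTV-Cre+; Frmd8fl/fl; PyMT, gave replicates 2 and 4 and is here called Cre+. All mice thus carried floxed Frmd8 and the PyMT oncogene, and the methods give a C57BL/6 background for the floxed and PyMT lines. The MMTV promoter drives Cre in luminal mammary epithelium, and the dissociated cells were sorted by flow cytometry with a gate that the sources used here do not give.

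Complement is a set of secreted proteins and receptors that tag and clear microbes and dying cells. C1q binds the target and carries the proteases C1r and C1s, and C1s cleaves C4 and C2 to form an enzyme that cleaves C3. The small fragments C3a and C5a act on the receptors encoded by C3ar1 and C5ar1 on myeloid cells. In many tissues macrophages are known to make C1q, whereas stromal cells and the liver make the proteases, C3 and C4.

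After barcodes with under 1000 UMIs or over 20% mitochondrial UMIs were removed, 23572 cells were kept, 4922 to 7123 per library, with median depths of 12455 to 13072.5 UMIs. Pairs of libraries shared 6 to 16 barcodes, at most 0.325% of the smaller library. A cell was placed in a class when the markers of that class alone passed a threshold, with a rule for monocyte markers shared with other classes, and none of the 9 genes was a marker. This gave 10211 epithelial cells (43.3% of all), 6007 macrophages (25.5%), 1309 T or NK cells, 1271 fibroblasts, 589 endothelial cells, 475 monocytes, 390 neutrophils, 164 dendritic cells, 148 mural cells, 128 B cells and 21 mast cells. Another 996 cells passed for several classes and 1863 for none, and these were left out. The UMIs of a class were summed per library and are given as CPM, counts per 1000000 UMIs of that sum, so levels below are levels within a class and not cell numbers. Frmd8, the deleted gene, was at 24.2 and 24.3 CPM in Cre- epithelial cells and at 5.60 and 10.6 in Cre+ epithelial cells. In macrophages it was at 24.9 and 24.0 against 19.3 and 13.8.

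Promoters of 7 of the 9 genes were found in the RefSeq promoter table of build GRCm38.p6, each window running from 250 bases before the annotated start to 50 bases after it. The windows of C1qb and C1qc, which followed each other across classes, are shown beside those of C1s1, C1ra and C3, which were highest in fibroblasts. Capitals mark matches, on either strand, to 3 sequences: the PU.1-type core GAGGAA, bound by a factor of the myeloid lineage, the C/EBP core TTGCNNAA, and the TATA box TATAAA. The windows lie at chr4:136886151-136886450 for C1qb, chr4:136892865-136893164 for C1qc, chr6:124542310-124542609 for C1s1 and chr17:57228087-57228386 for C3, all on the minus strand, and at chr6:124512371-124512670 on the plus strand for C1ra.
C1qb: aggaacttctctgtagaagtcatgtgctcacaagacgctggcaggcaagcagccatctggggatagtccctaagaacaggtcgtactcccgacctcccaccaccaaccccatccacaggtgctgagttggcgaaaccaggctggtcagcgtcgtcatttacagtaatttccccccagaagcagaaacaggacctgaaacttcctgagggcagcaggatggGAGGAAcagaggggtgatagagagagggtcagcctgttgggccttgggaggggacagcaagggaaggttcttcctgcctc
C1qc: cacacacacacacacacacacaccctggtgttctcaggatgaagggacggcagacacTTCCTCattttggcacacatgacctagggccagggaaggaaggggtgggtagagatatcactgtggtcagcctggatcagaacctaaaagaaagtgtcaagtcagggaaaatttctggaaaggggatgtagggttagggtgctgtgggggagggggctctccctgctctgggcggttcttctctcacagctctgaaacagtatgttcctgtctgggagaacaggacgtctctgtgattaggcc
C1s1: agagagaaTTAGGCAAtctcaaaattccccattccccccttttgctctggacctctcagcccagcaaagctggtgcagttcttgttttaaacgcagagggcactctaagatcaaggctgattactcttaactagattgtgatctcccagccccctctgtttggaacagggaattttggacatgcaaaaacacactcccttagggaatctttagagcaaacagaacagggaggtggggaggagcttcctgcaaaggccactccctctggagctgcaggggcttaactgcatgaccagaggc
C1ra: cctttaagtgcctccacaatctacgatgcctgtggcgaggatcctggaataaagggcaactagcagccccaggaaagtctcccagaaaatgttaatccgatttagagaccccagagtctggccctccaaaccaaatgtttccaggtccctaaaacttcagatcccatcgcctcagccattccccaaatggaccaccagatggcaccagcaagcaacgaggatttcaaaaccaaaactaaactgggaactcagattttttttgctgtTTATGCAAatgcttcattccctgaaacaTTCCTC
C3: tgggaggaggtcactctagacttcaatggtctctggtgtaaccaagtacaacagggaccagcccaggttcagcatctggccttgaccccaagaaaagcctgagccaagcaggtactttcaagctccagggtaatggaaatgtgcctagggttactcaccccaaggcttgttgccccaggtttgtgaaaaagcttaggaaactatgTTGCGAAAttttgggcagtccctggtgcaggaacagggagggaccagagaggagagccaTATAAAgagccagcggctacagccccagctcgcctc
The PU.1-type core was present once in C1qb, C1qc and C1ra, and absent from C1s1, C3, C3ar1 and C5ar1. It was present in 28.3% of all 32851 windows. The C/EBP core was present in C1ra, C3 and the C1s1 window shown, which is 1 of 2 listed for that gene, and in 10.8% of all windows. The TATA box was present in C3 among the 5 windows shown, and in C3ar1 among the others, and in 13.6% of all windows. The TATA match of C3 lay after the annotated start, and that of C3ar1 began 235 bases before it. Both matches in C1ra lay after the annotated start. These are matches of letters, and the files hold no measure of binding at them.

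The chains of C1q were highest in macrophages. C1qa was at 5022 and 5722 CPM in the macrophages of Cre- replicates 1 and 3, and at 5797 and 5651 in those of Cre+ replicates 2 and 4, a mean of 5548 ± 356 (SD, n = 4). C1qb was at 4727, 5817, 5557 and 5729.7 in the same order, and C1qc at 3274, 3533, 3599.8 and 3789.9. The 4 libraries lay within a narrow band for each chain, with Cre- replicate 1 lowest for all 3. Macrophages supplied 93.1 to 95.4% of all UMIs of each chain in a library. Such shares, here and below, depend also on how many cells of each class were recovered and sorted.

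Monocytes, the circulating precursors of many tissue macrophages, came next. Their C1qa level was 352 ± 112 CPM (SD, n = 4), with C1qb at 469 ± 107 and C1qc at 196 ± 36.5. Cells that also passed the macrophage gate counted as monocytes where the monocyte markers were stronger. In edgeR's quasi-likelihood test over all class sums, with the library as a block, macrophages exceeded monocytes by 3.99 ± 0.29 on the log2 scale (SE) for C1qa, by 3.57 ± 0.33 for C1qb and by 4.20 ± 0.30 for C1qc. Adjusted p-values were 1.15e-11, 9.88e-10 and 4.72e-12. Of the 9 genes, 7 were higher in macrophages than in monocytes, 1 (C3) was lower and 1 (C1s1) was not called, where 22.1% of all 14187 genes tested were called. C1ra, at 1.74 ± 0.50, lost its call without Cre+ replicate 2 (edgeR, adjusted p = 0.0691), without Cre- replicate 3 (0.0913) and under a narrower gate (0.0552).

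In every other class the summed C1q level was between 0.209 and 1.82% of the macrophage level of the same library. It was 27.2 to 119.8 CPM in epithelial cells and 42.6 to 135 in fibroblasts. A narrower gate, which left out cells with more markers of another class, lowered these to 14.98 to 41.9 and 23.0 to 34.3 CPM, while macrophages stayed at 13261 to 15396. In epithelial cells C1qa made up 37.4 to 41.7% of the C1q UMIs, and in macrophages 37.3 to 38.8%. T or NK cells, which are not known to make C1q, held 88.9 to 107 CPM, and 26.6 to 91.1 under the narrower gate. Endothelial cells under that gate rose from 51.3 to 77.9 CPM in Cre+ replicate 2 and fell in the other libraries. The barcodes of Cre+ replicate 4 with up to 100 UMIs, which hold free RNA, were at 6525 CPM for the summed chains, 43.0% of the level in the macrophages of that library. There C1qb made up 43.5% and C1qc 19.3% of the C1q UMIs, against 37.8 and 24.98% in the macrophages and 39.1 and 23.0% in the epithelial cells of that library. The parts of free RNA and of mixed barcodes in the levels outside macrophages, monocytes included, were not tested. No order was drawn among the classes other than macrophages and monocytes.

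**Figure D1:**
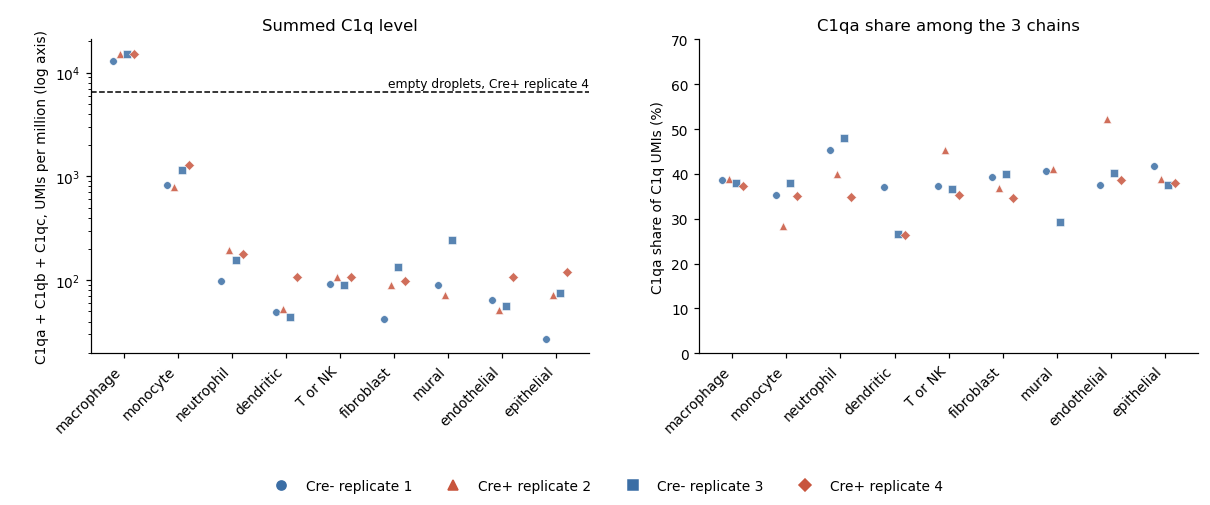
Summed CPM of C1qa, C1qb and C1qc (left, log axis) and the share of C1qa among them in percent (right) by class, with 1 point per library and the dashed line at the empty droplets of Cre+ replicate 4. Macrophages lie above the line at 13023 to 15171, monocytes at 795 to 1300 and all other classes drawn at 243 or less. B cells are not drawn. The C1qa share in epithelial cells lies near that in macrophages.

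The chains were found together in single cells. With every macrophage thinned to 1000 UMIs, all 3 chains had a UMI in 77.6, 85.2, 80.9 and 84.3% of macrophages in replicates 1 to 4, and none had one in 4.99, 3.11, 4.19 and 4.01%. Without thinning, 92.9 to 95.3% held all 3. Of T or NK cells thinned alike, 2.81 to 5.67% held a C1qa UMI, against 90.0 to 93.0% of macrophages. Over the 37 class sums of at least 20 cells, the genes most like each chain were Trem2, Apoe and Pf4, with Pearson r from 0.931 to 0.965 on log2(CPM + 1) among 10071 genes. These sums share 4 libraries, so the values describe the pattern only.

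The proteases C1s1 and C1ra, which C1q carries, were highest in fibroblasts. C1s1 was at 755 and 686 CPM in the fibroblasts of Cre- replicates 1 and 3 and at 756 and 856 in those of Cre+ replicates 2 and 4. C1ra was at 411, 457, 470.5 and 550.1 in the same order. Mural cells, the contractile cells around vessels, followed with 419 ± 134 for C1s1 and 80.0 ± 25.2 for C1ra (SD, n = 3, since replicate 4 had under 20 such cells). The mural and fibroblast ranges did not overlap for either gene. In macrophages C1s1 was at 0.66 to 2.46 CPM and C1ra at 3.92 to 10.1.

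Fibroblasts exceeded epithelial cells by 8.71 ± 0.37 on the log2 scale for C1s1 and by 8.10 ± 0.31 for C1ra (edgeR, adjusted p = 4.72e-19 and 3.92e-20). C3 and C4b were also called higher, and the C1q chains and both receptors were not called, so 4 of the 9 genes were called in a comparison that called 59.2% of all genes. Genes most like C1s1 over the class sums were Galnt16, Serping1, which encodes the inhibitor of C1r and C1s, and C1qtnf7 (r from 0.949 to 0.950). Those most like C1ra were Ctsk, Twist2 and Slit3 (0.936 to 0.945). C1ra and C1s1 have the close copies C1rb and C1s2, and how reads matching both were counted is not given. The copies were at 0.37 and 1.5 CPM in fibroblasts.

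**Figure D2:**
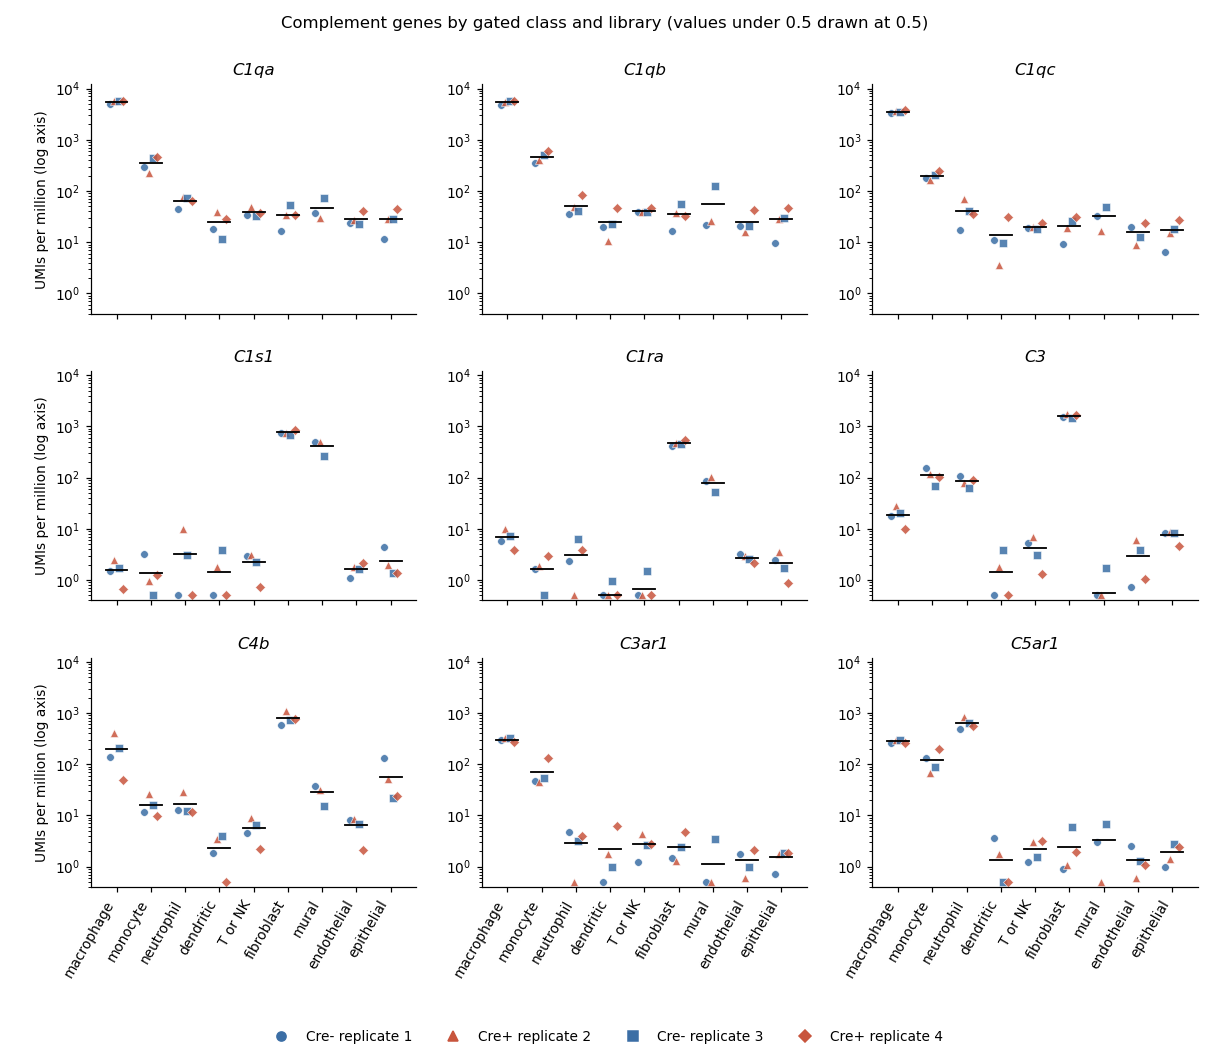
CPM (log axis) of the 9 genes in 9 classes, with 1 point per library, bars at the mean, Cre- in blue and Cre+ in red, and values under 0.5 drawn at 0.5. The C1q chains and C3ar1 peak in macrophages, C5ar1 in neutrophils, and C1s1, C1ra, C3 and C4b in fibroblasts, while the C4b points of macrophages and of epithelial cells lie far apart.

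C3, the component on which all complement pathways meet, was at 1548 and 1482 CPM in Cre- fibroblasts and at 1722 and 1684 in Cre+ fibroblasts, a mean of 1609 ± 113. Fibroblasts supplied 77.5 to 90.4% of all C3 UMIs of a library. Monocytes were at 151 and 69.8 in the Cre- libraries and at 116 and 105 in the Cre+ libraries. Neutrophils were at 109, 62.1, 77.9 and 90.0 in that order, and their range overlapped that of monocytes. C1s1, C1ra and C4b, also highest in fibroblasts, were at most 3.28, 2.91 and 26.7 CPM in monocytes. In neutrophils C1s1 was at most 9.74, from 1 UMI, C1ra at most 6.21 and C4b at most 29.2. The part of fibroblast RNA in the C3 of monocytes and neutrophils was not tested.

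Macrophages held less C3 than either, at 18.0 and 20.6 in Cre- and 27.8 and 9.75 in Cre+ libraries. They fell below monocytes by 2.61 ± 0.28 on the log2 scale and below neutrophils by 2.28 ± 0.32 (edgeR, adjusted p = 2.21e-08 and 5.52e-07). The comparison with neutrophils called 45.1% of all genes. Of the 9 genes, 5 were higher in macrophages there, C3 and C5ar1 were lower, and C1s1 and C1ra were not called. Genes most like C3 were Pi16 (r = 0.910), Igfbp6 (0.857) and Vcan (0.835), the first of which also gates a fibroblast subset below and the last of which is a marker of the monocyte gate.

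C4b, which encodes the component cleaved by C1s, was highest in fibroblasts and also present in macrophages and epithelial cells, where its level spread widely between libraries. In fibroblasts it was at 589.7 and 735 CPM in Cre- replicates 1 and 3 and at 1096 and 756 in Cre+ replicates 2 and 4. In macrophages it was at 139, 211, 405 and 48.4 in that order. The 2 Cre+ libraries were thus the highest and the lowest. In epithelial cells it was at 131 in Cre- replicate 1, against 22.1, 51.5 and 24.1 in the other 3. The close copy C4a was at 0.80 CPM in fibroblasts, with the same limit on shared reads.

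The class that supplied most C4b UMIs differed by library. Epithelial cells supplied 64.5% of the C4b UMIs in Cre- replicate 1, but 9.91 to 28.6% in the others, while fibroblasts supplied 19.2% there and 32.2 to 55.1% elsewhere. Macrophages supplied 11.2% in Cre- replicate 1 and 29.3 to 33.7% in the other libraries.

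As a share of its fibroblast level, C4b in macrophages and epithelial cells was above C1s1, C3 and C1ra in every library. It reached 6.40 to 37.0% of the fibroblast level in macrophages and 3.00 to 22.2% in epithelial cells. C1s1 reached at most 0.325 and 0.596% of its fibroblast level in these classes, C3 at most 1.61 and 0.555%, and C1ra at most 2.14 and 0.743%. In the barcodes of Cre+ replicate 4 with up to 100 UMIs C4b was at 43.0 CPM, near the 48.4 in its macrophages and above the 24.1 in its epithelial cells, and its part in these levels was not tested. The summed level of 6 fibroblast markers in macrophages was 22.8 CPM in Cre+ replicate 4, 56.7 and 81.5 in Cre- replicates 1 and 3, and 100.3 in Cre+ replicate 2, the same order as C4b, against at least 45772.5 in fibroblasts. In epithelial cells it was lowest, at 51.6, in Cre- replicate 1, where C4b was highest. Genes most like C4b were Dnm1, Olfml3 and Steap3 (r from 0.851 to 0.854).

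Across classes, macrophages fell below fibroblasts by 2.29 ± 0.36 for C4b, by 9.03 ± 0.38 for C1s1, by 6.24 ± 0.28 for C1ra and by 6.50 ± 0.32 for C3 on the log2 scale. They exceeded fibroblasts by 6.78 to 7.46 for the other 5 genes, and all 9 were called by edgeR (adjusted p at most 1.66e-06), in a comparison that called 60.9% of all genes. Against epithelial cells 8 of 9 were called higher in macrophages, C4b by 1.93 ± 0.36 (adjusted p = 2.53e-05), and C1s1 was not called. That comparison called 64.6% of all genes.

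The receptor C3ar1, for C3a, was highest in macrophages at 303 and 319 CPM in Cre- and 320.3 and 272 in Cre+ libraries. Monocytes were at 47.6, 53.7, 44.8 and 135, and no other class exceeded 6.29. Macrophages exceeded monocytes by 2.21 ± 0.26 on the log2 scale (edgeR, adjusted p = 1.31e-07). Genes most like C3ar1 were Gdf3, Trem2 and Siglec1 (r from 0.934 to 0.944).

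C5ar1, the receptor for C5a that draws neutrophils to inflamed sites, was highest in neutrophils. Their level was 485 and 649 CPM in Cre- and 818 and 548 in Cre+ libraries. Macrophages were at 260.0 and 301 in Cre- and 292 and 259.8 in Cre+ libraries, below every neutrophil value, by 1.10 ± 0.30 on the log2 scale (edgeR, adjusted p = 0.00371). Monocytes were at 133, 89.7, 68.6 and 200, below the macrophages of every library, and the difference of 1.22 ± 0.31 had an adjusted p of 0.00399 in edgeR. Without Cre+ replicate 2 the adjusted p of the latter was 0.0526. The neutrophils were shallow, with library medians of 3551 to 3674 UMIs, and Cre+ replicate 2 held 24 of them. With cells thinned to 1000 UMIs, 32.7 to 62.5% of neutrophils and 19.2 to 23.2% of macrophages held a C5ar1 UMI, against at most 0.271% of T or NK cells. Genes most like C5ar1 were P2ry13, Clec4d and Cxcl2 (r from 0.952 to 0.962).

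Within the macrophages, C4b had the largest log2 difference between subsets of the 8 genes tested. Macrophages of at least 5000 UMIs were gated on Folr2, Lyve1, Cd163 and Timd4, which mark tissue-resident macrophages, and on Mmp12, an elastase. C4b was at 504, 799, 1178 and 559 CPM in the Folr2/Lyve1 cells of replicates 1, 3, 2 and 4 that failed the Mmp12 gate. In the Mmp12 cells that failed the Folr2/Lyve1 gate it was at 10.6, 11.3, 20.3 and 8.11, and in cells of neither gate at 32.6 to 108. The 3 subsets did not overlap in any library, and the edgeR difference was 5.77 ± 0.14 on the log2 scale (adjusted p = 5.82e-07).

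C5ar1 rose with the Folr2/Lyve1 gate too, to 496 ± 32.6 CPM against 235 ± 14.8 (SD, n = 4), a log2 difference of 0.91 ± 0.10 (edgeR, adjusted p = 4.41e-04). C1ra was at 18.9 ± 3.19 against 2.52 ± 0.58 and C3 at 31.7 ± 13.8 against 13.8 ± 4.67, with adjusted p-values of 0.000238 and 0.0250. The call of C3 was lost in 4 of 11 alternatives, without each of Cre- replicate 1, Cre+ replicate 2 and Cre- replicate 3 (adjusted p = 0.0600, 0.0942 and 0.0864) and under the strict gate (0.0556). In Cre+ replicate 4 the Folr2/Lyve1 cells held C3 at 11.5 CPM and C1ra at 16.01, beside 25.3 and 7.43 in the barcodes of up to 100 UMIs. The C1q chains and C3ar1 were not called. C1qa was at 6454 ± 321 against 4562 ± 583 and its log2 difference of 0.34 ± 0.14 had an adjusted p of 0.0971. Of the 8 genes tested 4 were called, all higher in Folr2/Lyve1 cells, where 34.8% of all 8871 genes were called. C1s1 did not pass the filter on low counts there, at 1.58 and 1.88 CPM.

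**Figure D3:**
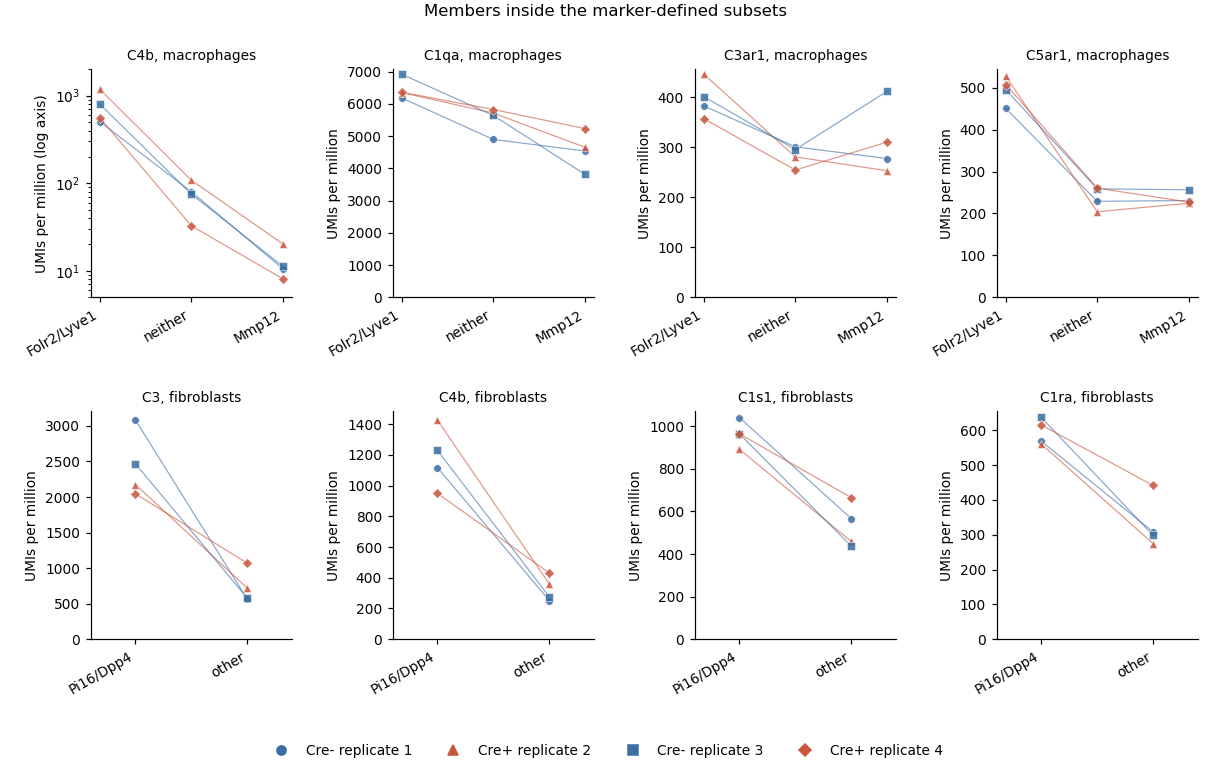
CPM in subsets of macrophages (top) and fibroblasts (bottom), with 1 line per library, a log axis for C4b in macrophages and linear axes from 0 elsewhere. C4b falls from 504 to 1178 in Folr2/Lyve1 macrophages to 8.11 to 20.3 in Mmp12 macrophages, and C3, C4b, C1s1 and C1ra are higher in Pi16/Dpp4 fibroblasts in all 4 libraries.

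The size of the Folr2/Lyve1 subset followed the C4b level of all macrophages. It held 16.8, 29.4, 20.3 and 4.82% of the deep macrophages of replicates 1, 2, 3 and 4, and 54.3, 82.4, 72.1 and 47.7% of their C4b UMIs. Outside the gate C4b was also highest in Cre+ replicate 2, at 99.1 CPM, and lowest in Cre+ replicate 4, at 25.6. The summed level of 8 stress genes in macrophages was highest in Cre+ replicate 2 too, at 11181 CPM, and lowest in Cre+ replicate 4, at 4873. The part of the stress genes in these levels was not tested.

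**Figure D4:**
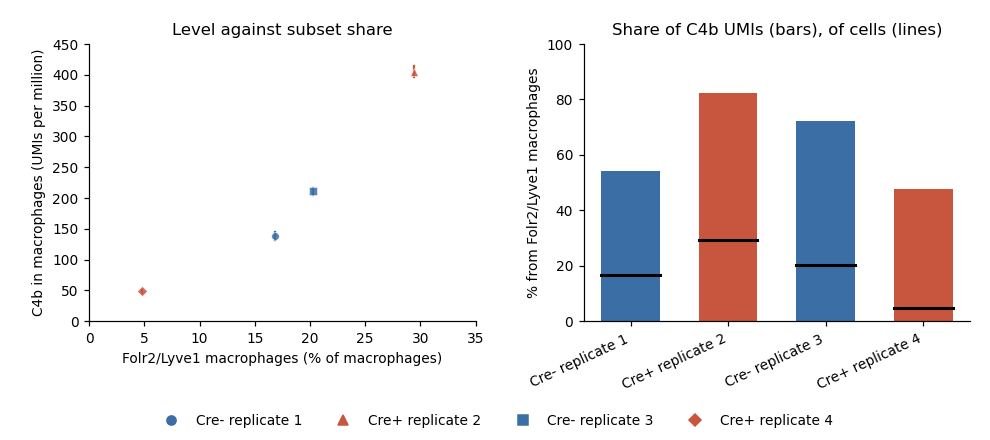
Left, C4b in all macrophages in CPM against the Folr2/Lyve1 gate as a percent of macrophages of at least 5000 UMIs, 1 point per library (bars: 95% Poisson interval of the count, for counting error only). Right, percent of C4b UMIs (bars) and of cells (black lines) from that gate among macrophages of at least 5000 UMIs. The gate held 4.82 to 29.4% of these cells and 47.7 to 82.4% of their C4b UMIs.

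The MHC class II gate split C4b less than the Folr2/Lyve1 and Mmp12 gates, but not C3ar1. The latter was at 397 ± 37.6 CPM in Folr2/Lyve1 cells against 313 ± 69.8 in Mmp12 cells (SD, n = 4). MHC class II-high macrophages held C4b at 58.5 ± 24.7 CPM against 285 ± 272 in the rest, lower in 4 of 4 libraries, and C3ar1 at 242 ± 21.4 against 337 ± 34.6. Macrophages gated on the lipid-associated genes Trem2, Spp1, Gpnmb, Fabp5 and Cd9 held C3ar1 at 389 ± 51.9 against 291 ± 28.8, with the same level in Cre+ replicate 2 (323 against 326). The MHC class II and lipid-associated splits were not tested.

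Within the fibroblasts, the 4 genes of that class were higher in cells with Pi16 and Dpp4, which mark adventitial fibroblasts around vessels. C3 was at 3082, 2468, 2176 and 2045 CPM in the Pi16/Dpp4 fibroblasts of replicates 1, 3, 2 and 4, and at 561, 576, 716 and 1067 in the other fibroblasts. C4b was at 1181 ± 200 against 329 ± 82.0 (SD, n = 4), C1s1 at 966 ± 60.9 against 532 ± 105 and C1ra at 595 ± 36.8 against 330 ± 75.3. No range overlapped between the 2 subsets.

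Log2 differences were 1.79 ± 0.24 for C3, 1.88 ± 0.19 for C4b, 0.89 ± 0.13 for C1s1 and 0.89 ± 0.13 for C1ra, with adjusted p-values of 0.00299, 0.00105, 0.00342 and 0.00389 in edgeR. Of the 7 genes tested, these 4 were called and the C1q chains were not, where 16.8% of all 11223 genes were called. C3ar1 and C5ar1 did not pass the filter on low counts there. C1ra lost its call with the upper limits on UMIs and genes (adjusted p = 0.0816) and under a narrower gate (0.0750). The gate held 52.5 to 74.7% of the deep fibroblasts and 76.7 to 87.2% of their C3 UMIs. Fibroblasts gated on Acta2, Tagln and Postn, genes of contractile fibroblasts, held 269 ± 127 CPM of C3 against 2267 ± 171 in the rest, and 202 ± 97.2 of C4b against 1089 ± 310, a split that was not tested.

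Within the epithelial cells, C4b was lower in basal cells, gated on keratins and Acta2, in 3 of 4 libraries. It was at 57.6, 23.4 and 9.35 CPM in the basal cells of replicates 1, 2 and 4, against 132, 51.5 and 25.8 in the other epithelial cells, and at 22.5 against 21.2 in replicate 3. The log2 difference was -0.96 ± 0.25 (edgeR, adjusted p = 0.0470), and it lost its call in 6 of 11 alternative settings. It was the only one of the 9 genes called, where 9.61% of all 14643 genes were called. In Cre- replicate 1 the high C4b was found both in alveolar cells, at 167, and outside that gate, at 120.0. Alveolar cells of replicates 2, 3 and 4 were at 61.9, 26.0 and 40.9 against 44.7, 19.6 and 23.0 in the rest. Hormone-sensing cells, gated on Prlr, Esr1, Pgr and Cited1, were at 36.8 against 153 in the rest in Cre- replicate 1. In Cre+ replicate 2 they were at 17.2 against 53.2, and replicates 3 and 4 had under 20 such cells.

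The design compares mice in which Cre deletes Frmd8 in luminal epithelium with mice without Cre. Macrophages and fibroblasts are not the cells in which MMTV is stated to drive Cre. The mean Frmd8 level was still lower in Cre+ in both classes. It was 16.6 against 24.4 CPM in macrophages and 13.9 against 17.4 in fibroblasts, and the cause was not tested. In edgeR no complement gene was called between genotypes. Such a fit can miss changes, since on simulated macrophage counts it recovered 10% of genes changed by 1 log2 unit. In macrophages C1qa was higher in Cre+ by 0.21 ± 0.28 on the log2 scale (SE, 2 libraries against 2), C1qb by 0.21 ± 0.30, C1qc by 0.24 ± 0.27, C3ar1 by 0.04 ± 0.20 and C5ar1 by 0.09 ± 0.21. All adjusted p-values in edgeR were 1.00. The sign of the receptor differences depended on the scaling. Their mean CPM were lower in Cre+, at 296 against 311 for C3ar1 and at 276 against 280.5 for C5ar1. The size of the C1q differences depended on the scaling too. Mean CPM in Cre+ and Cre- were 5724 and 5372 for C1qa, 5643 and 5272 for C1qb, and 3695 and 3403 for C1qc. Of the 9 genes C1qc alone did not overlap between genotypes in macrophages, where 24.9% of all genes tested did not. Among all genes 0.0% were called by edgeR in macrophages (0 of 13069, with 244 at an unadjusted p under 0.05), 0.0% in fibroblasts (0 of 12545, with 691) and 0.0% in epithelial cells (0 of 16321, with 383). DESeq2 called 12, 68 and 55 genes, none of them among the 9.

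C4b in macrophages differed by 0.42 ± 0.89 between genotypes, with the 2 Cre+ libraries on opposite sides of both Cre- libraries. The log2 difference of C4b was -1.69 without Cre+ replicate 2 and 1.23 without Cre+ replicate 4. In these fits the lone Cre+ library was assumed to vary like the Cre- libraries.

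**Figure D5:**
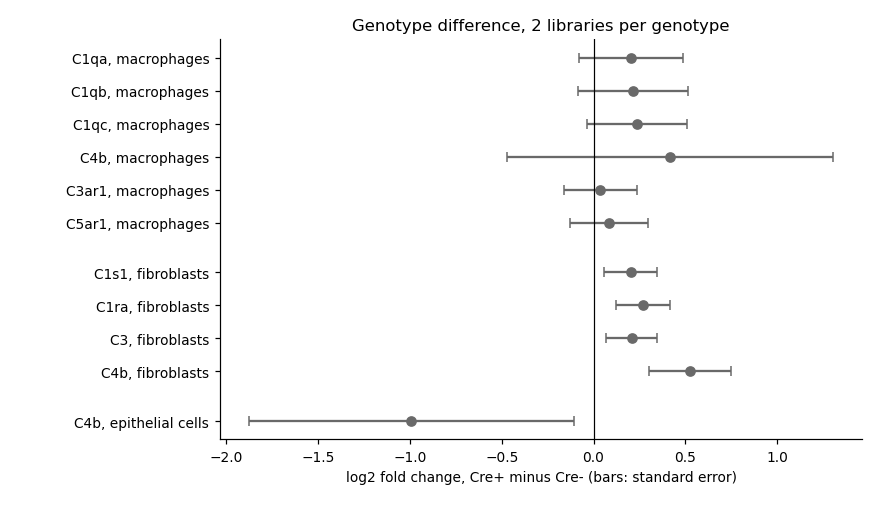
Log2 fold change, Cre+ minus Cre-, of the genes at 40 CPM or more in a class, with bars of 1 standard error derived from the edgeR test. The bars cross 0 for all 6 genes in macrophages, lie above 0 for the 4 genes in fibroblasts and below 0 for C4b in epithelial cells, and none passed the adjusted threshold.

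In fibroblasts all 4 genes of that class were higher in both Cre+ libraries than in both Cre- libraries. For C1s1, however, Cre- replicate 1 and Cre+ replicate 2 were nearly equal. Log2 differences were 0.20 ± 0.14 for C1s1, 0.27 ± 0.15 for C1ra, 0.21 ± 0.14 for C3 and 0.52 ± 0.22 for C4b. Adjusted p-values ran from 0.935 to 0.996 in edgeR, with an unadjusted p of 0.0576 for C4b. The C1q chains and both receptors overlapped between genotypes in fibroblasts, and all 9 genes did in epithelial cells. Thus 4 of the 9 genes did not overlap in fibroblasts, where 35.3% of all genes tested did not in either direction. In epithelial cells 27.7% of all genes tested did not overlap. The share of Pi16/Dpp4 cells was 52.5 and 56.7% in Cre- and 74.7 and 61.3% in Cre+ fibroblasts, and its part in these levels was not tested. Under a gate that left 56 to 341 fibroblasts per library, all 4 differences turned negative (-0.03 to -0.35). In epithelial cells C4b was lower in Cre+ by 0.99 ± 0.88 (edgeR, adjusted p = 1.00), and higher by 0.80 without Cre- replicate 1.

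Among 40 other complement genes, 26 were tested between classes. Against fibroblasts, 9 were higher in macrophages and 11 lower, where 60.9% of all genes were called in either direction, with a median log2 difference of -0.54 beside -0.15 for all genes. Against epithelial cells, 14 were higher in macrophages and 6 lower, where 26.1 and 38.5% of all genes were (median 0.97 beside -0.22). In fibroblasts 13 were higher than in epithelial cells and 3 lower, where 30.9 and 28.3% of all genes were (0.69 beside -0.01). Between genotypes none was called by edgeR in any of the 3 classes.

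The highest of these genes in macrophages were Itgam at 264 ± 55.9 and Itgb2 at 229 ± 45.3 CPM, which together encode a receptor for C3 fragments, and Cfp at 239 ± 39.1, properdin, which stabilises the alternative C3 convertase. In fibroblasts they were Serping1 at 1431 ± 204, Cfb at 355 ± 67.9, the protease of the alternative pathway, and Cd55 at 244 ± 60.6, which speeds the decay of convertases. In epithelial cells they were Clu at 506 ± 300, C1qbp at 210 ± 52.0 and Cd55 at 54.5 ± 26.6. Clu, an inhibitor of the terminal complex, was at 956 in Cre- replicate 1, the library with the highest epithelial C4b, and at 343 to 369 in the others.

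Within macrophages 10 of the 16 other genes tested were higher in Folr2/Lyve1 cells than in Mmp12 cells and 2 were lower, where 17.2 and 17.6% of all genes were, with a median log2 difference of 1.42 beside -0.02 for all genes. Itgam and Cfp were among those higher, by 1.05 ± 0.15 and 1.90 ± 0.22 (edgeR, adjusted p = 0.00157 and 5.24e-04). Within fibroblasts 3 of 15 were higher in Pi16/Dpp4 cells and 3 lower, where 8.82 and 7.99% of all genes were (median 0.34 beside 0.01). The 3 higher were Cd55 by 3.15 ± 0.13, Cfb by 1.66 ± 0.17 and Serping1 by 1.03 ± 0.13 (edgeR, adjusted p at most 0.00225). Of 20 tested between basal and other epithelial cells edgeR called none, where 9.61% of all genes were called.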

How the data were processed

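Single-cell RNA was measured in 4 libraries of sorted mammary tumor cells. The deposited matrices hold UMI counts per gene and barcode, made by the authors with Cell Ranger 6.1.2 or, for replicate 4, Cell Ranger 4, which was deposited with all barcodes. The submitters' processing notes name build hg38, but the genes are mouse genes, and the mouse build is not given in the sources used here.

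Barcodes with at least 1000 UMIs and at most 20% mitochondrial UMIs were kept. A class needed at least 3 UMIs of 2 of its markers and a set share of marker UMIs. Cells passing for macrophages and monocytes went to the stronger of these, and cells passing for monocytes and for fibroblasts or T or NK cells went to the latter. Other cells passing for several classes were left out, as possible doublets, and no doublet caller was run. Thresholds were set after marker distributions and member levels were seen. Subsets were gated among cells of at least 5000 UMIs.

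Counts were summed per library and class, with at least 20 cells, and tested with edgeR 4.0.16 (quasi-likelihood, TMM, library as a block except between genotypes), calling genes at a Benjamini-Hochberg adjusted p under 0.05 across the whole table. Class comparisons came from 1 fit over all class sums. DESeq2 1.42.0 with its own scaling, other filters and gates, leaving out the block, and leaving out each library were alternatives. No other scaling was tried in edgeR. On simulated counts, the genotype fit in macrophages recovered 10% of genes changed by 1 log2 unit and 97% of those changed by 2. The fit of macrophages against fibroblasts recovered 79 and 100%. Standard errors of edgeR differences were derived from the test, as the absolute log2 difference divided by the square root of its F statistic. Intervals cover counting error only.

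The 9 genes were named in every comparison. Of 40 other complement genes, the 3 highest in each of macrophages, fibroblasts and epithelial cells were named. For each of the 9 genes, the 3 most correlated genes outside the 9 were named too. The genes and lists were chosen with earlier results of these data known.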

Additional observations from a re-analysis of the deposited data

How the results depend on the processing

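Alternatives were summarised for the 60 fold changes of the 9 genes that were called or at 40 CPM or more in a class compared. Of their 613 values, 581 kept their direction and their side of the threshold, 14 reversed, 16 lost their call and 2 gained one. The cause of these changes was not tested. With a library left out, macrophage differences between genotypes ran from -0.0292 to 0.112 for C3ar1 (below 0 without Cre- replicate 1, and -0.0239 without Cre+ replicate 2), from -0.0454 to 0.232 for C5ar1 (below 0 without Cre- replicate 1) and from -1.69 to 1.23 for C4b, the lowest without Cre+ replicate 2 and the highest without Cre+ replicate 4. Under the strict gate these were -0.0722, -0.0839 and -0.340. In fibroblasts the narrower gate, chosen after seeing the data, gave -0.0928 for C1ra, -0.118 for C1s1, -0.355 for C3 and -0.0317 for C4b. Epithelial C4b ran from -1.77 without Cre- replicate 3 to 0.797 without Cre- replicate 1. Between Folr2/Lyve1 and Mmp12 macrophages C1qb ran from -0.0378 without Cre- replicate 3 to 0.110 without Cre+ replicate 4 and was -0.147 with upper limits on UMIs and genes, and C1qa was called without the filter on genes (adjusted p = 0.0412).

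Counts of genes called between genotypes were 0 in edgeR. In macrophages they were 12 with DESeq2, 19 without the filter and 0 to 2220 with a library left out, the highest without Cre+ replicate 2 and 239 without Cre+ replicate 4. In fibroblasts they were 68 with DESeq2, 502 without the filter and 2 to 63 with a library left out (63 without Cre+ replicate 2, 16 without Cre- replicate 3, 14 without Cre+ replicate 4 and 2 without Cre- replicate 1), and in epithelial cells 55 with DESeq2 and 0 to 8 with a library left out (8 without Cre+ replicate 2). Macrophages against monocytes gave 3135 and 1982 to 2849 with a library left out, with 1995 without Cre- replicate 3 and 1982 without Cre- replicate 1. The macrophage subsets gave 3086 and 1773 under the strict gate. The Pi16/Dpp4 comparison gave 1887, 543 with upper limits, 1175 under the narrower gate and 658 to 2473 with a library left out (658 without Cre- replicate 3, 775 without Cre+ replicate 2). The basal comparison gave 1407, 652 with upper limits and 444 to 1371 with a library left out (444, 752 and 820 without Cre- replicate 3, Cre+ replicate 2 and Cre- replicate 1).

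Without the replicate block the basal comparison called 217 genes, and C4b there had an adjusted p of 0.492. Leaving out the block ended no other call among these fold changes. No paired analysis was possible because the genotypes share no replicate number. The strict gate could not be fitted for comparisons with fibroblasts, monocytes or neutrophils.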
